A study of Drosophila melanogaster with 2 samples.

Results

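The genes described are 10 Drosophila melanogaster genes for insulator and architectural proteins: the cofactors Chro, Cp190 and mod(mdg4) and the DNA-binding proteins Dref, CTCF, su(Hw), BEAF-32, pita, ZIPIC and M1BP. They are 10 of 18164 annotated genes, and 10 of 13945 protein-coding ones, listed by name, with no measured value in the rule. The data are chromatin immunoprecipitation with sequencing (ChIP-seq) of the CG4707 protein in whole embryos of both sexes, aged 0 to 14 h. The embryos came from 1 transgenic line that stably carries CG4707 with GFP at its C terminus, and all the data belong to 1 group of 2 replicates, labelled as biological and numbered 2 and 3. The labels name no promoter of the transgene, no second genotype and no second condition. A free-text label calls both libraries an input control, while the title, assay and antibody labels describe a ChIP of the tagged protein, and they are read here as ChIP libraries. Regions are those whose summit lies in the gene body or within 2 kb of it on dm6. At the 10 genes these are 12 of 3470 peaks that passed the authors' reproducibility threshold, 33 of 30000 pooled regions, 34 of 30000 in replicate 2 and 35 of 30000 in replicate 3. How deeply the libraries were sequenced is not known from region lists. Signal is the authors' own value per region, in the unit of their caller, and its rank within a list (1 is the highest) is what can be set side by side between lists.

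Insulators are DNA elements that limit contacts between enhancers and promoters and that often lie at borders of chromatin domains. In flies, sequence-specific proteins such as CTCF, Su(Hw), BEAF-32, Pita, ZIPIC and M1BP recognise DNA at these elements and recruit shared cofactors that do not read long motifs themselves, among them CP190, Mod(mdg4) and Chromator, the product of Chro. Many of these proteins also occupy promoters of broadly expressed genes, and DREF activates such promoters through the DNA replication-related element, or DRE. What is described here is the reverse view: where the tagged CG4707 protein lay on the genes that encode them.

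The DNA at 4 of the peaks is shown first, as examples of the DNA under or beside a summit. They hold a CGATA copy at Chro and Dref, the GAGA motif in mod(mdg4), and a DRE at the Cp190 start site, outside the window used for the motif counts. The Dref stretch ends before its summit, and its CGATA copy was centred at -74 bp from the summit in genome direction. These examples do not show how common a motif was at the peaks, for which the counts are given below. They are read from the Release 6 genome in the 5′ to 3′ direction of the insulator gene, which lies on the minus strand in each case. Capitals mark a DRE (TATCGATA), the CGATA letters bound by BEAF-32 (TATCG on the opposite strand), or GAGAGAG, the GAGA motif. The Chro window is kept to 30 bases because it lies in a 5′ UTR.
Chro, chr3L:22878871-22878900, 30 bases with the summit at base 15: aagcTATCGacaggcaatacactcccagta
Dref, chr2L:9967230-9967312, all 83 bases between the start sites of Dref and RpL13: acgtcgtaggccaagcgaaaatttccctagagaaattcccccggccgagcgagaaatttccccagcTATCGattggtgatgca
Cp190, chr3R:15275236-15275521, the bases between the start sites of CG4338 and Cp190 with the first 6 of Cp190, summit at base 120: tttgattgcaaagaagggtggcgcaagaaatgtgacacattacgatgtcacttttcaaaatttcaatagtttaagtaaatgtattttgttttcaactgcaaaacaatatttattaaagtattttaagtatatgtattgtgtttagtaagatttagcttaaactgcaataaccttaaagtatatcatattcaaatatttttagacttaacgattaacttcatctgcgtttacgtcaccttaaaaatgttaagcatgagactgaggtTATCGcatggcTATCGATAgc
mod(mdg4), chr3R:21376355-21376455, 101 bases centred on an intronic summit at base 51: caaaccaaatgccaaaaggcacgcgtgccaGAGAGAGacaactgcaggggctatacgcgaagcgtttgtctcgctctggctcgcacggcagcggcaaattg

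A peak lay in the body or within 2 kb of 7 of the 10 genes, Chro, Cp190, Dref, BEAF-32, mod(mdg4), pita and M1BP, against 24.5% of protein-coding genes and 22.9% of all genes. CTCF, su(Hw) and ZIPIC had none. With a start site (TSS) within 500 bp of a peak summit there were 6, the same genes without mod(mdg4), against 12.0% of protein-coding genes and 10.5% of all genes. The 12 peaks came to 122 per Mb of the genes' windows, against 34.3 per Mb over the windows of all protein-coding genes, and to 118 per Mb with mod(mdg4) left out. The bodies of the 10 genes had a median length of 3636 bp, against 2166 bp for protein-coding genes. A count per gene thus also carries the greater length of the typical member. The values per Mb are over summed windows, in which long genes weigh most. No test was made, since the list was chosen with earlier results of these data known.

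**Figure D1:**
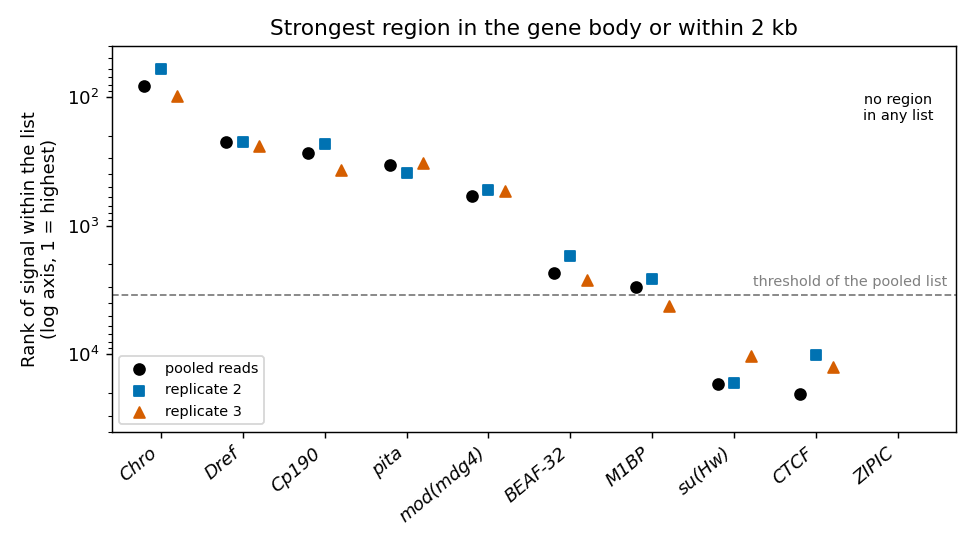
Rank of the strongest region in the gene body or within 2 kb (y axis, log scale, 1 is the highest) for each of the 10 genes (x axis), in the pooled list (circles), replicate 2 (squares) and replicate 3 (triangles); the dashed line is the threshold of the pooled list at rank 3470. Chro, Dref, Cp190, pita and mod(mdg4) rank 593 or higher in the 3 lists, BEAF-32 and M1BP lie near the threshold, and CTCF and su(Hw) lie far below it.

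Among the promoter peaks, signal fell into a high and a low set of genes. Of 1675 protein-coding genes with a TSS within 500 bp of a peak, 57 (3.4%) had a strongest promoter peak at the rank of Chro or above. The figure was 9.49% for Dref and 11.2% for Cp190. For BEAF-32 it was 69.4%, for pita 82.7% and for M1BP 87.5%. No member lay between these sets.

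Chro encodes Chromator, a chromodomain protein of interbands and housekeeping promoters. Its peak, on 3L from 22878732 to 22879070, had a signal of 548 and rank 61 in replicate 2, 482 and rank 98 in replicate 3, and 1029 and rank 82 in the pooled list. The replicate summits lay 10 and -24 bp from the pooled one in genome direction, so the replicates placed it at nearly the same point. The summit was 98 bp downstream of the most upstream of 3 annotated start sites (22878984), in the 5′ UTR, and 203 bp upstream of the start of Ssl1, a gene of the general transcription and repair factor TFIIH that runs the other way. Near the innermost start site of Chro (22878184) a separate pooled region, 27 bp downstream of it, had rank 11037, so the signal of the promoter sat at the outer start sites. A coding exon held a further region at rank 28185, near the bottom of the list, and the 2 remaining regions lay past the 3′ end, in the 5′ UTRs of Arf1 (rank 10473) and CG11109 (rank 17967).

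Cp190 encodes a zinc finger and BTB domain cofactor shared by most fly insulators. Its peak, on 3R from 15275243 to 15275545, had rank 230 (signal 273) in replicate 2, rank 372 (233) in replicate 3 and rank 270 (516) in the pooled list. The summit was intergenic, 161 bp upstream of the Cp190 start site and 120 bp upstream of that of CG4338 on the other strand. It was the only pooled region at the gene, whose body and 3′ flank held none. A DRE lay across the Cp190 start site, with a further CGATA copy centred at -13 bp from that site. Within 100 bp of the summit none of the 12 motifs searched was found, and that window had a GC content of 24.4%, the lowest of the 12 peaks, against a median of 38.3% over all peaks.

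Dref encodes the DRE-binding factor. Its peak, on 2L from 9967195 to 9967452, ranked 224 (signal 277) in replicate 2, 239 (288) in replicate 3 and 225 (573) in the pooled list, so its rank hardly moved between lists. The start sites of Dref and RpL13, a gene of the large ribosomal subunit, stand 84 bp apart on opposite strands. The summit lay at 5 bp inside RpL13 and at -89 bp from Dref, so it belongs to the Dref promoter only by this short distance. No DRE was found within 200 bp of the summit; a CGATA copy was centred at -15 bp from the Dref start site, between the summit and that site. The other pooled region at Dref, at rank 10750, lay past its 3′ end in the 5′ UTR of CG5850.

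BEAF-32 encodes a boundary element-associated factor that binds CGATA clusters. It was the only one of the 10 with 2 promoter peaks, both on 2R. The outer one, from 14770251 to 14770630, had its summit 28 bp upstream of the first start site and ranked 1722 (signal 93.6) in replicate 2 but 3776 (58.9) in replicate 3, with 2339 (151) in the pooled list. The inner one, from 14771106 to 14771485, had its summit 5 bp upstream of the innermost start site, in the 5′ UTR of the longer transcripts. It ranked 2656 (71.9) in replicate 2, 2658 (73.7) in replicate 3 and 2811 (135) in the pooled list. The outer peak thus fell outside the 3470 highest regions of replicate 3, while the inner one was inside in both. An antisense RNA gene, asRNA:CR42254, has several annotated starts here, and the inner and outer summits lay at -1 bp and -171 bp from different ones. The next protein-coding start, that of Spred, was 1018 bp from the outer summit. A DRE was centred at -178.5 bp from the outer summit, which had CGATA copies on both sides, while those near the inner summit were all on its downstream side.

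pita encodes a zinc finger protein of boundary elements in the bithorax complex. It has 2 annotated start sites, and the promoter peak was at the inner one (23551551), on 2R from 23551198 to 23551577. It ranked 2112 (signal 82.8) in replicate 2, 3359 (63.4) in replicate 3 and 2808 (135) in the pooled list. Its summit was 163 bp downstream of that start site but 75 bp downstream of the start of Dcp-1, a caspase gene on the other strand, and lay in the 5′ UTR of both. At the outer start site of pita (23554712) the nearest pooled region, 205 bp downstream, had rank 16908, far below the threshold. The strongest peak counted for pita, from 23547254 to 23547516, ranked 388 (217), 327 (251) and 336 (461) in replicate 2, replicate 3 and the pooled list. It lay 1574 bp beyond the 3′ end of pita, in an intron of wmd, 595 bp downstream of a wmd start site. It was also the only one of the 12 with CACTGTGC within 100 bp, centred 12.5 bp from the summit.

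M1BP encodes the zinc finger protein that binds the core promoter element Motif 1. Its peak, on 3R from 8731822 to 8732201, was intergenic, 314 bp upstream of the M1BP start site and 79 bp upstream of that of CG8202 on the other strand. It ranked 2610 (signal 73) in replicate 2 and 4228 (55.2) in replicate 3, with 3015 (129) in the pooled list, so it stood among the 3470 highest regions of 1 replicate. It was the lowest of the 12 peaks. Each replicate also placed a separate region nearer to the gene, at -73 bp from the M1BP start site in replicate 2 (rank 3882) and at -95 bp in replicate 3 (rank 5932). The pooled list held no separate region there.

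**Figure D2:**
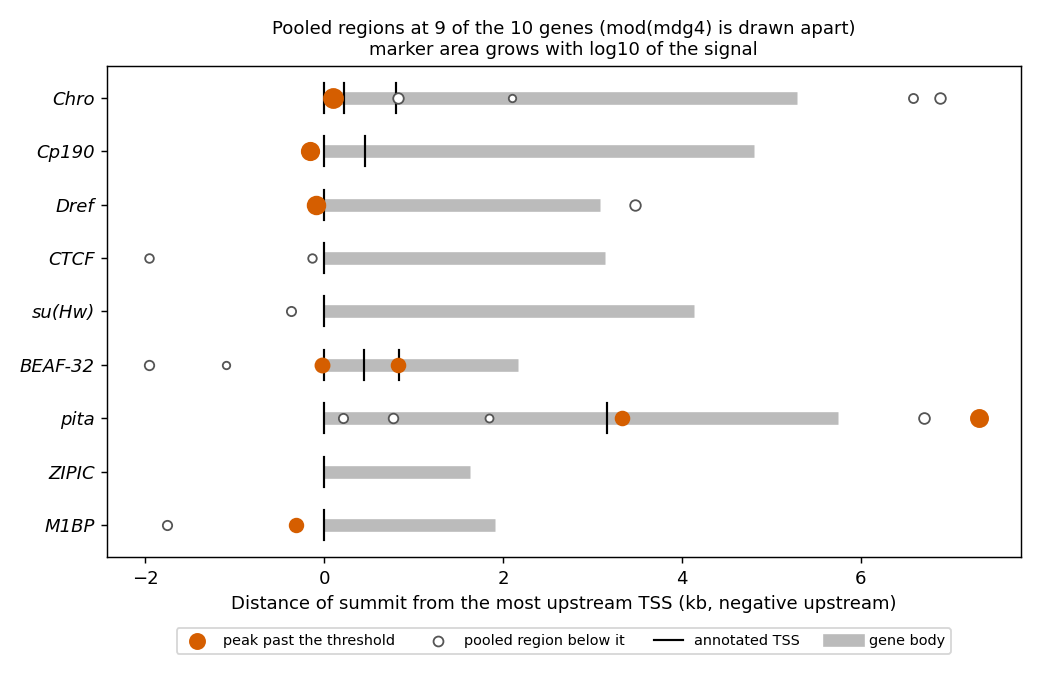
Pooled regions at 9 of the 10 genes (rows), by distance of the summit from the most upstream start site of the gene in kb (x axis, negative upstream). Filled circles are peaks past the threshold, open circles are pooled regions below it, circle area grows with the log10 of the signal, grey bars are gene bodies and black ticks are start sites; of the 4 largest circles, those of Chro, Cp190 and Dref lie within 200 bp of the 5′ end and that of pita lies past the 3′ end. mod(mdg4) is drawn apart.

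mod(mdg4) encodes a BTB protein whose many isoforms are joined in trans to 3′ parts transcribed elsewhere in the locus. It is the longest of the 10 genes, at 26556 bp on 3R from 21350846 to 21377401. It had 4 peaks in the body or within 2 kb, a number reached by 1.26% of protein-coding genes of all lengths. Per Mb of its window this came to 131, against 34.3 for protein-coding genes. None of the 4 was at the annotated start site. The region there, 51 bp downstream of the start in the 5′ UTR, ranked 3379 (signal 62.7) in replicate 2 and 4969 (50.2) in replicate 3, and its pooled rank of 3841 (110) was just below the threshold. An intronic peak 996 bp downstream of the start site, whose sequence with the GAGA motif is shown above, differed most between replicates, with rank 6021 (43.2) in replicate 2 and 1795 (93) in replicate 3 (pooled rank 2704, signal 139).

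The strongest peak of mod(mdg4) lay 11966 bp inside the gene, on 3R from 21365245 to 21365624, at rank 725 (signal 157) in replicate 2, 539 (194) in replicate 3 and 593 (357) in the pooled list. The annotation lists 23 separate units named pre-mod(mdg4), 14 on the strand of the gene and 9 on the opposite strand, which carry the name of the gene. Of these, 10 had a start site within 500 bp of this summit. Their start sites there were at 11913 and 12111 bp from the mod(mdg4) start on the same strand. On the opposite strand they were at 11792 bp. The summit thus stood between the divergent starts at 12111 and 11792 bp. It was also 53 bp downstream of the nearest start, that of pre-mod(mdg4)-E at 11913 bp, in the 5′ UTR of this unit. Further unit starts at 3826 bp coincided with a region below the threshold at 3811 bp (pooled rank 6583). Those at 17633 bp lay near a pooled region at 17596 bp (rank 12487). The replicate summits nearest to it were less close, at 17789 bp in replicate 2 and 17400 bp in replicate 3. Other unit starts, on the opposite strand, were at 17225 bp. No region lay within 500 bp of the starts at 9272 bp. The remaining peaks were outside the body. One, 1434 bp upstream of mod(mdg4) at ranks 527 (187), 662 (172) and 601 (354) in replicate 2, replicate 3 and the pooled list, lay 142 bp upstream of tin, the heart and mesoderm homeobox gene. The other, 661 bp past the 3′ end at ranks 1859 (89.5), 1331 (113) and 1466 (203), was intergenic and 584 bp upstream of aus.

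**Figure D3:**
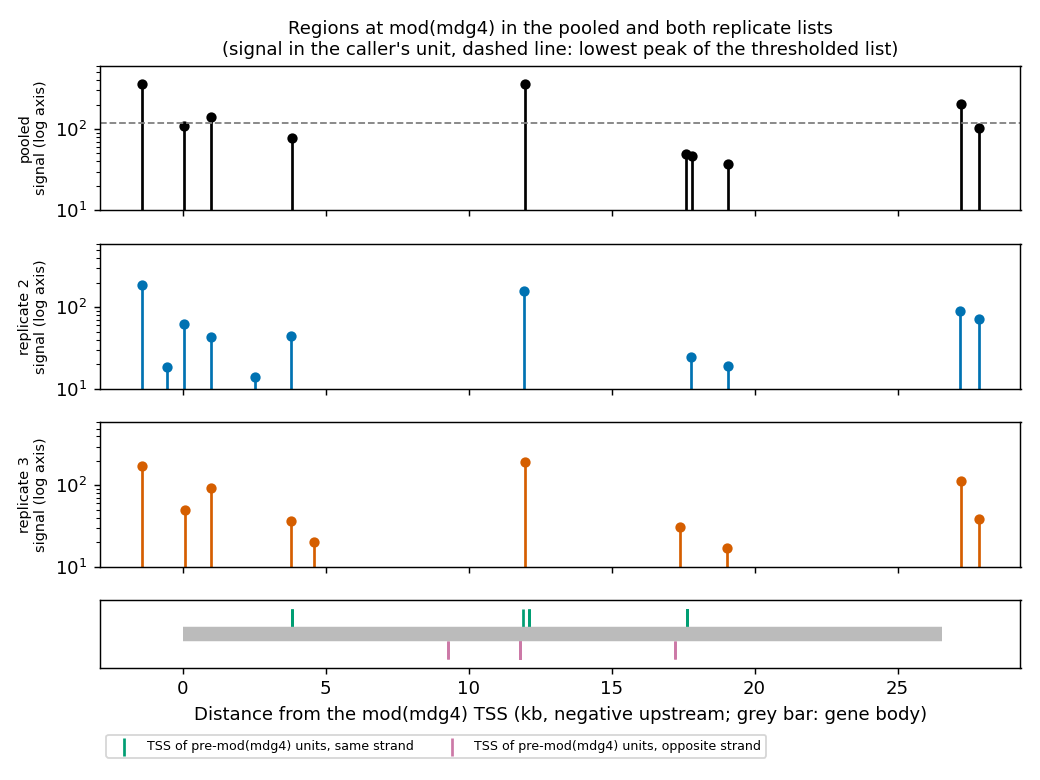
Signal of each region at mod(mdg4) (y axes, log scale, the caller's unit) by distance from its start site in kb (x axis, negative upstream), in the pooled list, replicate 2 and replicate 3, above a map of the gene body (grey) and the start sites of the pre-mod(mdg4) units. The tallest bars in the 3 lists are at -1434 bp, upstream of tin, and at 11966 bp, beside unit starts on both strands; signal heights are not comparable between panels.

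CTCF, su(Hw) and ZIPIC had no peak, and what the longer lists held there was weak. CTCF encodes the fly homologue of the vertebrate insulator protein. On 3L, its promoter region, with a summit at -138 bp from the start site, ranked 21137 of 30000 in the pooled list (signal 34.4). The nearest regions of the replicates lay at 32 bp in replicate 2 (rank 10122) and at -252 bp in replicate 3 (rank 12537), so the replicates did not share a summit. su(Hw), whose product binds the gypsy insulator, had on 3R a pooled region at -376 bp from the start site at rank 17082 (39.8). The nearest regions upstream were at -497 bp in replicate 2 (rank 23084) and at -386 bp in replicate 3 (rank 10318). The strongest region of replicate 2 at su(Hw) was instead 245 bp downstream of the start site (rank 16873, signal 21.5). The nearest peak to su(Hw) lay 4300 bp past its 3′ end at rank 2183, beyond the 2 kb limit. The peak closest to that limit on the inside was the one 1574 bp beyond pita. ZIPIC, whose product acts with CP190, had no region within 2 kb in any list. A pooled region lay in such a window at the other 9 of the 10 genes, against 71.3% of protein-coding genes. Counted at promoters, 9 of the 10 genes had a pooled summit within 500 bp of a TSS, against 47.1% of protein-coding genes. At this unknown depth a weak or absent region does not show that the protein was absent.

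The replicates placed their summits at the same sites. Each of the 12 peaks had a summit of both replicates within 100 bp, against 96.1% of all peaks, and 9 of the 12 were among the 3470 highest regions of both, against 71.1%. Both shares are near those of all peaks. The exceptions were the outer BEAF-32 peak and the M1BP peak, lower in replicate 3, and the mod(mdg4) peak at 996 bp, lower in replicate 2. Both replicates also went into the pooled list, so they are no independent check of it. With the 3470 highest regions of replicate 3 alone, M1BP lost its peak. With those of replicate 2 alone, mod(mdg4) gained one at its start site.

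**Figure D4:**
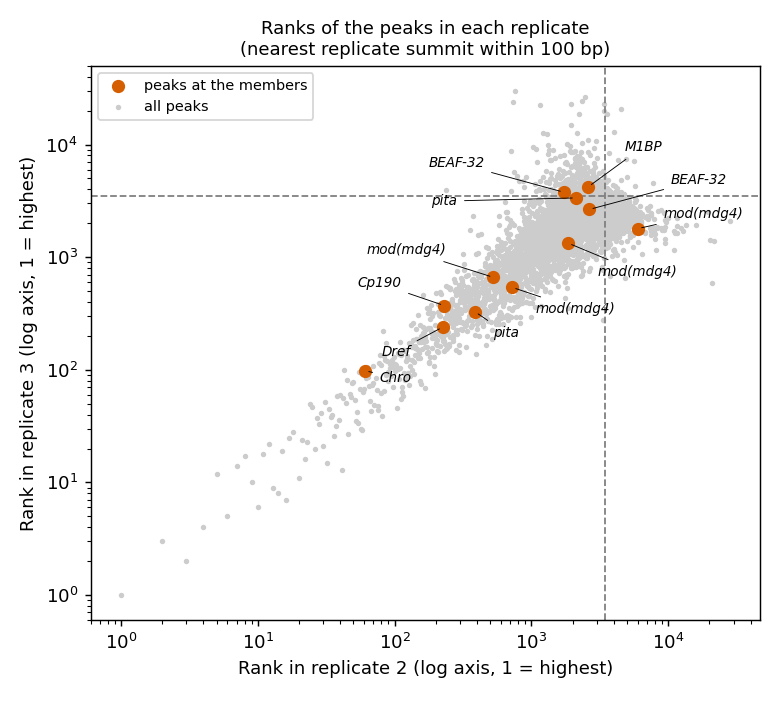
Rank in replicate 3 (y axis) against rank in replicate 2 (x axis), both on log scales with 1 the highest, for the nearest replicate summit within 100 bp of each peak. The 12 peaks at the insulator genes (large points) run from Chro at ranks 61 and 98 to the mod(mdg4) peak at ranks 6021 and 1795, within the cloud of all peaks (small points); dashed lines are at rank 3470.

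Most of these peaks could as well be assigned to a neighbour. The start site nearest to the summit, among protein-coding genes, belonged to the insulator gene at 4 of the 12 peaks, namely Chro, both of BEAF-32 and the mod(mdg4) peak at 996 bp. Over all pairs of a protein-coding gene and a peak in its window, the share was 57.6%. Units named pre-mod(mdg4) count as other genes in both figures, and with pre-mod(mdg4)-E taken as part of mod(mdg4) the count would be 5 of the 12. Of the 6 genes with a promoter peak, 5 shared it with another protein-coding gene whose start lay within 500 bp of the summit, against 44.1% of 1675 such genes. The partners were Ssl1 for Chro, CG4338 for Cp190, RpL13 for Dref, Dcp-1 for pita and CG8202 for M1BP, each on the opposite strand. At Cp190 and M1BP the summit lay between the divergent starts. At Chro it lay 98 bp inside Chro, at Dref 5 bp inside RpL13, and at pita in the 5′ UTR of both genes. The region lists carry no strand, so a peak near starts on opposite strands cannot be given to either gene by strand. The same holds for CG4707 itself, the gene of the tagged protein, whose promoter had a peak at pooled rank 350 (signal 454), at -149 bp from its own start and at -95 bp from that of CG42360.

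**Figure D5:**
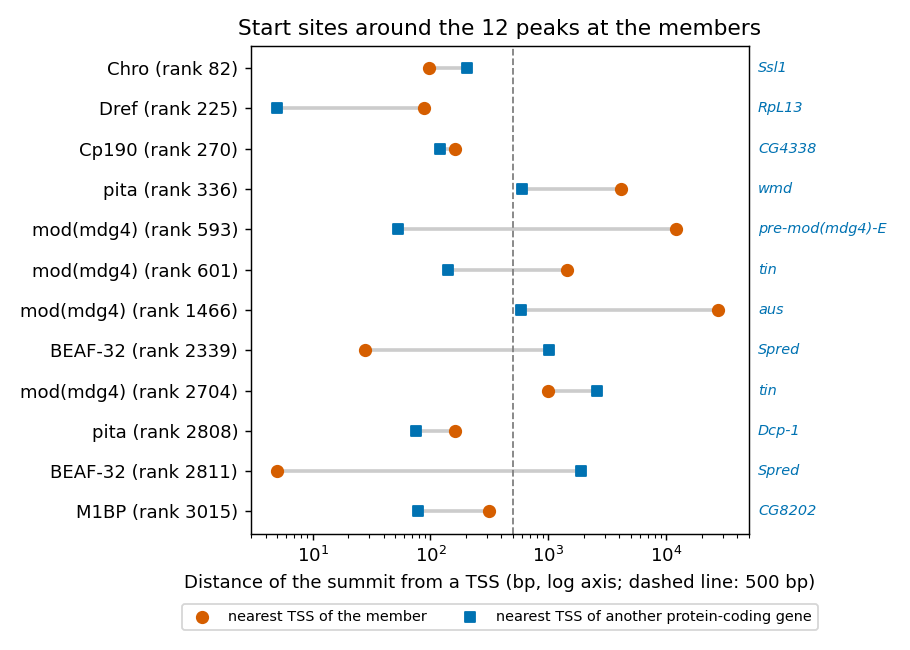
Distance in bp (x axis, log scale) from the summit of each of the 12 peaks to the nearest start site of the insulator gene (circles) and to that of the nearest other protein-coding gene (squares, named at the right), from the highest rank at the top to the lowest at the bottom; the dashed line is at 500 bp. Circles lie to the left of squares at 4 peaks, and at 7 peaks the square is within 500 bp.

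Exact motifs were sought within 100 bp of the 12 summits on both strands, and counts are given beside the share of all peaks. The 8-mers CACTGTGC and ACAGTGGG, taken from earlier results of these data, occurred at 1 and 0 of the 12, against 9.91% and 9.86% of all peaks in windows of the same length, and the ACAGTG core that both contain at 1, against 26.5%. The CGATA letters occurred at 4 (Chro, Dref, the inner BEAF-32 peak and the inner pita peak), against 24.6%. The TATA box TATAAA occurred at 5, against 29.8%, the GAGA motif GAGAGAG at 1, against 7.35%, and the Initiator TCAGTT at 1, against 13.1%. None of the 12 held the DRE (2.25% of all peaks), AGGTGGCG for CTCF (0.893%), GGTCACACT for M1BP (1.47%), GCATACTTT for Su(Hw) (0.692%) or CAGGTAG for Zelda (1.04%). Within 200 bp the DRE, which contains CGATA, occurred at 2 of the 12, at Cp190 and the outer BEAF-32 peak, against 3.98% of all peaks. In the Chro window shown above, the marked CGATA copy was centred 8 bp from the summit.

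A wider list of 38 architectural genes gave the setting. A promoter peak within 500 bp was found at 10 of the 38 (26.3%), against the 12.0% of protein-coding genes given above. In the body or within 2 kb the count was 11 (28.9%), near the 24.5% of protein-coding genes. By role, the promoter count was 6 of 11 cofactors, 2 of 12 other DNA-binding insulator proteins, 2 of 8 genes of cohesin and its regulators, and 0 of 7 condensin genes. The cofactors were shep (rank 791), an RNA-binding antagonist of insulators, fs(1)h (1197), a BET family protein, JIL-1 (2591), a histone H3 kinase, e(y)2 (2763), a SAGA subunit that also binds Su(Hw), pzg (3130), a partner of Chromator, and Rm62 (3141), an RNA helicase. Of these, fs(1)h (rank 165), JIL-1 (200) and shep (690) had a stronger peak elsewhere in the body or within 2 kb. The DNA-binding proteins were Trl (rank 1649 at the promoter, 7 inside the gene) and psq (692 and 13), both GAGA-binding. In the cohesin group, pds5 ranked 662 and SA1, a core subunit, 1672 (474 for its strongest peak in the body or within 2 kb), while SMC1 had a peak at -963 bp from its start at rank 2447, outside the promoter window. In the longer pooled list, 5 of the 12 DNA-binding genes (Trl, psq, Clamp, insv and Opbp) had a summit within 500 bp of a TSS, near the 47.1% of protein-coding genes. The others (dwg, Ibf1, Ibf2, Elba1, Elba2, Elba3 and Zif) had none.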

How the data were processed

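ChIP-seq regions of 2 replicates of tagged CG4707 embryos were used, as lists deposited by the authors, with fragments of 200 to 800 bp per the labels. Per the deposited file listing, each replicate, and both together, were compared with 1 control alignment to call regions, of which 3470 passed a reproducibility threshold. The deposited signal is a score whose unit no source describes, so it was compared by rank within a list. Another deposited column gives the summit as an offset from the region start. Coordinates are on dm6, per the labels. Aligner and caller: not given in the sources used here. The 3470 peaks equal the 3470 pooled regions of highest signal.

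Summits were placed on Ensembl release 115 without transposable elements, and 99.9% of protein-coding genes had the same coordinates in RefSeq. Each gene was counted once for a summit in its body or within 2 kb, or within 500 bp of a TSS. Motifs were exact letters within 100 bp. The members, lists and motifs were chosen with earlier results of these data known, so no test was made. All 10 members are named, as are neighbours with a TSS within 500 bp of a member peak and wider-list genes with a promoter peak. Other genes named (Spred, wmd, aus, Arf1, CG11109, CG5850, pst, CG4707, CG42360, SMC1 and wider-list genes with no promoter peak) were chosen after their values were seen. SA was matched to SA1 by its synonym, and 1 of 39 symbols matched no gene. The counting was tested on simulated data. Alternatives were other windows, a stricter threshold of 1735 peaks, and each replicate alone. The scripts ran under Python 3.11.15 with pandas 2.3.3, and figures were drawn with matplotlib 3.10.9.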

Additional observations from a re-analysis of the deposited data

How the results depend on the processing

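The number of insulator genes with a peak in the window was 7, and it was 4 in the gene body alone, since the Cp190, Dref and M1BP summits lie upstream of the start site. It was 7 within 1 kb, 8 within 5 kb (with su(Hw)), 5 with the stricter threshold, and 6 to 7 without 1 replicate. The number with a promoter peak was 6. It was 3 (Chro, Cp190 and Dref) with the stricter threshold, 5 within 250 bp, 7 within 1000 bp, 5 at the most upstream TSS, and 5 to 7 without 1 replicate. The wider list gave 10, and 6 with the stricter threshold. The shares of all genes given above are for the main windows and threshold only. The counts at the other settings therefore cannot be set against them. The median rank of the strongest region over 9 genes was 593 in the pooled list and 527 to 539 in single replicates. In each list this was the value of mod(mdg4), though not of the same region. It was the intronic peak in the pooled list and replicate 3 (539), but the peak upstream of tin in replicate 2 (527). The median signed distance of the strongest pooled peak from the TSS, over the 7 genes, was -28 bp. Upstream and downstream values offset each other in it, from -314 bp at M1BP to 4158 bp at pita and 11966 bp at mod(mdg4). For the same peaks it was -94 to -28 bp in single replicates, where the Chro summit of replicate 3 was nearer to another Chro start site. The ACAGTG core was at 1 of the 12 peaks within 100 bp, against 26.5% of all peaks. Within 200 bp, a longer window, it was at 3, against 36.7%. Summits of both replicates lay within 50 bp at 11 of the 12 peaks. No paired analysis was possible because there is 1 group. Depth is unknown, and 2 replicates allow no spread beyond their own difference.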
